A study of Mus musculus with 622 samples.

Results

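The nuclear genes of oxidative phosphorylation were followed in single mouse embryos from the late 2-cell stage to the compacted morula. They were chosen by symbol: names that start with Nduf, Uqcr, Atp5 or Cox4 to Cox8, together with Sdha, Sdhb, Sdhc and Sdhd, leaving out names marked as pseudogenes. This gave 92 of the 23845 genes listed for each embryo. Among them were 7 core subunits, 29 accessory subunits and 7 assembly factors (the Ndufaf genes) of complex I, 4 subunits of complex II, 8 of complex III, 20 of complex IV and 17 of complex V. Ndufa4 and its paralogue Ndufa4l2 were counted with complex IV, and Atp5s and Atp5sl came in by symbol with complex V.

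All embryos came from FVB/NJ mice, with females of 5-7 weeks and males of 8-12 weeks. Oocytes of superovulated females were either activated with strontium, which gives parthenotes with no paternal genome, or fertilized in vitro. Zygotes were injected with one of 2 synthetic microRNAs, miR-200c-3p or else miR-465c-3p, and control zygotes with GFP. Single embryos were lysed 28 h (late 2-cell), 46 h (4-cell) or 70 h (compacted morula) after activation or fertilization. Parthenotes of the miR-200c experiments received a low or a mid dose (2-cell stage), or a low, mid or high dose (later stages). Parthenotes of the miR-465c experiments received 1 unspecified dose at the 2-cell stage and a low or high dose later, and fertilized embryos received 1 unspecified dose of miR-200c-3p. The low dose was about 200 molecules, and the size of the others is not given in the sources used here. The 525 embryos with counts fell into 23 groups of 16 to 29. Zygotes of about 5 females were pooled on each experimental day and shared out among conditions, so embryos of a group may share a mother, and the p-values measure the spread between embryos. A further 93 2-cell parthenotes were used for an RNA editing assay described last.

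Oxidative phosphorylation is the last step of respiration in mitochondria. Complexes I and II feed electrons from NADH and succinate to ubiquinone, complex III passes them to cytochrome c, and complex IV hands them to oxygen. Complexes I, III and IV pump protons as they do so, and complex V, the ATP synthase, uses the resulting gradient to make ATP. A few subunits are encoded by mitochondrial DNA and are not analysed here; all others are nuclear. The early mouse embryo inherits its mitochondria from the oocyte, uses pyruvate before it uses glucose, and passes from maternal to embryonic transcripts at the 2-cell stage.

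Totals of expected counts ran from 404357 to 6774824 per embryo with a median of 3118638, and 7 embryos had under 1000000. Group medians of marker genes followed the labelled stages, while single embryos did not always. The summed level of maternal oocyte markers had group medians of 3553 and 2037 CPM (counts scaled to a library total of 1000000) in 2-cell controls of the miR-200c and miR-465c experiments and of 19 to 24 CPM in control morulae, while those of morula markers were 229 and 381 CPM at the 2-cell stage and 1541 to 3333 CPM in morulae. Markers of cumulus and granulosa cells, which surround the oocyte, had group medians of 44.1 to 323 CPM in the controls, with 3 to 7 of 10 genes detected in each group and Fshr at 0 in every control embryo, and their part in the results was not tested. In the 4-cell group given the high dose of miR-200c-3p, summed late 2-cell markers reached 11120 CPM against a group median of 45.28 CPM. Maternal markers there reached 2130 CPM against a median of 195.5 CPM. In the 2-cell mid-dose group late 2-cell markers ran down to 38.05 CPM against a median of 1838 CPM. The part of such embryos in the results was not tested. In 9 embryos the share of counts in the 92 genes lay more than 4 scaled median absolute deviations from the group's median. One of them, the library labelled 4-cell mid dose 7, had 4341 CPM of maternal markers against a group median of 223 CPM, and 177 CPM of morula markers against 804 CPM, which goes against its 4-cell label. Results are given with these 9 embryos, and again without them for some of the counts and directions that they move. Not every moved count is given.

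The injected microRNAs are shown first, as their mature sequences from RefSeq (mouse GRCm38.p6) with the seed, bases 2 to 8, in capitals. The genes lie on the minus strand at chr6:124718324-124718346 and chrX:66825965-66825986.
miR-200c-3p: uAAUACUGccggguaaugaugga
miR-465c-3p: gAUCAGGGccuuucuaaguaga
A match to the whole seed reads CAGTATT for miR-200c-3p and CCCTGAT for miR-465c-3p in the sense strand of a transcript. None of the 92 annotated 3′ UTRs held CAGTATT, a word found in 12.3% of all 18829 3′ UTRs, and none held CCCTGAT, found in 7.01%. The 3′ UTRs of the 92 genes were short, with a median of 160.5 nt against 818 nt over all genes. The shorter words AGTATT and CCTGAT, which pair with bases 2 to 7, occurred in 10 and 7 of the 92 (10.9% and 7.61%), against 29.1% and 24.1% of all. Sense-strand windows of 22 bases around such words in members described further on, chosen after their values were seen, are given here with the word in capitals. They lie at chr10:128090230-128090251 (plus strand), chr13:74322735-74322756 (minus), chr17:66079034-66079055 (minus), chr4:24903029-24903050 (plus) and chr1:171129691-171129712 (minus) of GRCm38.p6.
Atp5b, miR-200c-3p word: ctctgaagAGTATTtaaagttt
Sdha, miR-200c-3p word: gcagcacaAGTATTgttttgtt
Ndufv2, miR-200c-3p word: tttctcaaAGTATTccatttat
Ndufaf4, miR-200c-3p word: atcctagtAGTATTtttactta
Sdhc, miR-465c-3p word: caggttctCCTGATttgtttag
A match of letters is a description and not a binding site.

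The share of all counts held by the 92 genes was higher at each later stage in control embryos. In the 28 2-cell control parthenotes of the miR-200c experiments it ran from 0.369% to 0.714% with a median of 0.431%. In the 24 4-cell controls it ran from 0.644% to 1.22% with a median of 0.833%, and in the 20 morulae from 1.23% to 2.45% with a median of 1.76%. The morulae lay above every 4-cell embryo, and 1 of the 2-cell embryos, control 19 at 0.714%, overlapped the 4-cell range.

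The controls of the miR-465c experiments, which were separate embryos, showed the same order with a wider spread. Their 22 2-cell embryos ran from 0.316% to 0.628% (median 0.43%), the 23 4-cell embryos from 0.437% to 1.56% (median 1.09%) and the 22 morulae from 1.54% to 3.22% (median 1.88%). The lowest 4-cell value was control 23, which had 584100 counts and lay inside the 2-cell range, and the highest morula was control 24. Fertilized controls had 0.694% to 0.982% at the 4-cell stage (median 0.817%, 21 embryos) and 1.26% to 2.14% at the morula stage (median 1.57%, 23 embryos), with no overlap between the stages. These are shares of a library: more RNA of these genes and less of other RNA cannot be told apart, and neither can fewer cells of a type and less RNA per cell.

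The test of stage was edgeR's quasi-likelihood test over the 8 control groups, with p-values adjusted by the Benjamini-Hochberg method over 13027 genes and called under 0.05. Of the 92 genes, 87 passed the filter on low counts. Cox6a2, Cox7b2, Cox8b, Cox8c and Ndufa4l2 did not. From the 2-cell to the 4-cell stage 71 rose and 7 fell in the miR-200c controls, where 32.7% of all genes tested rose and 36.9% fell. In the miR-465c controls 78 rose and 2 fell, against 29% and 37.3% of all genes. The median log2 change of the 87 was 1.57 and 1.89, and that of all genes -0.15 and -0.26. From the 4-cell stage to the morula 76 rose and 4 fell in the miR-200c controls (27.6% and 27.6% of all genes), 62 rose and 5 fell in the miR-465c controls (28.9% and 27.4%), and 72 rose and 5 fell in fertilized controls (30.1% and 23.8%). The median log2 changes of the 87 over this step were 1.28, 1.04 and 1.01, beside 0.03, 0.08 and 0.18 for all genes. The 2 steps share the 4-cell embryos. Each stage is also a separate set of libraries, so stage and library batch cannot be told apart.

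The calls of the 2 control series were set side by side, since they share no embryos. Of the genes that rose from the 2-cell to the 4-cell stage, 68 did so in both series, which is 95.8% of the 71 and 87.2% of the 78. From the 4-cell stage to the morula 62 rose in both, 81.6% of the 76 and 100% of the 62. With most members called in each series, a large overlap of rises follows from the counts themselves. Falls were shared less fully: 2 of the 7 and of the 2 over the first step (28.6% and 100%), and 3 of the 4 and of the 5 over the second (75% and 60%). Over the first step 3 members were called in opposite directions.

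The 7 core subunits of complex I, which carry its flavin and iron-sulfur clusters, all rose from the 2-cell to the 4-cell stage in both series. Ndufv1 holds the flavin that takes electrons from NADH. In the miR-200c controls it ran from 0 to 35.4 CPM in 2-cell embryos (median 8.33), from 45.8 to 139 CPM in 4-cell embryos (median 89.9) and from 101 to 276 CPM in morulae (median 163). Every 4-cell embryo lay above every 2-cell embryo. The log2 change was 3.36 ± 0.33 (SE; adjusted p = 5.11e-18), and 2.73 in the miR-465c controls.

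Ndufs7, an iron-sulfur subunit close to the quinone site, rose by 3.23 and 3.09 on the log2 scale in the miR-200c and miR-465c series. Ndufs1, the largest core subunit, changed by 1.99 and 1.03. To the morula Ndufs1 rose by 0.79 and 1.31 in the parthenote series, and its change in fertilized embryos, 0.39, did not pass the test (adjusted p = 0.286). Over the 183 controls Ndufs8 had the highest mean of the core subunits, 162 CPM, and Ndufs1 the lowest, 90.9 CPM.

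Of the 29 accessory subunits of complex I, which surround the core and stabilise it, 25 rose and 2 fell from the 2-cell to the 4-cell stage in the miR-200c controls, and all 29 rose in the miR-465c controls. Ndufa8 ran from 0 to 16.6 CPM in 2-cell embryos (median 2.38) and from 15.7 to 139 CPM in 4-cell embryos (median 41.8) of the miR-200c controls. The ranges met at their edges. Its log2 change was 3.70 ± 0.36 there (adjusted p = 7.32e-19) and 4.48 in the miR-465c controls. Its mean in the 2-cell controls of the miR-465c series was 4.55 CPM. With the 2-cell embryos of that experiment fitted alone Ndufa8 did not pass the filter on low counts, so the size of the second rise depends on the fit.

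Ndufb4 rose by 3.58 and 4.50, Ndufa5 by 3.52 and 3.81, and Ndufa12 by 3.44 and 3.13 over the same step. In the miR-465c controls the largest rises were those of Ndufa3, 5.14 ± 0.37, and Ndufs6, 4.53 ± 0.37. Their means in the 2-cell controls of that series were only 1.43 and 3.29 CPM, and those of Ndufb4 and Ndufa5 1.49 and 1.20 CPM. Of these genes only Ndufs6 passed the filter on low counts when the 2-cell embryos of that experiment were fitted alone. The size of these rises therefore depends on the fit. The 2 accessory subunits that fell in the miR-200c controls were Ndufab1 (-0.93), the mitochondrial acyl carrier protein, and Ndufa2 (-0.61), and both rose in the miR-465c controls (0.47 and 0.41). To the morula 26, 20 and 24 accessory subunits rose in the miR-200c, miR-465c and fertilized controls, among them Ndufa5 (2.33, 2.82 and 1.91) and Ndufs4 (2.27, 2.34 and 1.72), which sits near the NADH-binding arm. Ndufb8 was the accessory subunit with the highest mean over the controls, 165 CPM, and Ndufs5 the one with the lowest, 4.96 CPM.

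The 7 assembly factors, which help to build complex I and are not part of the finished enzyme, had a mean summed share of counts of 0.022% in 2-cell, 0.0165% in 4-cell and 0.0148% in morula controls of the miR-200c series, and of 0.0153%, 0.0161% and 0.0165% in the miR-465c series. The lower 4-cell than 2-cell sum in the miR-200c series rests on Ndufaf4. Without it the other 6 held 0.00819%, 0.0131% and 0.0105%, and in the miR-465c series 0.00953%, 0.0144% and 0.0127%. From the 2-cell to the 4-cell stage 3 rose and 3 fell in these controls, and 2 rose and 1 fell in the miR-465c controls. Ndufaf4 fell in both. It ran from 15.6 to 324 CPM in 2-cell embryos (median 125) and from 9.94 to 77.4 CPM in 4-cell embryos (median 32.7) of the miR-200c controls, and its median in morulae was 42.0 CPM. The ranges of the first pair of stages overlapped. The log2 change was -2.00 ± 0.22 (adjusted p = 1.23e-15), and -1.56 ± 0.23 in the miR-465c controls (adjusted p = 7.24e-10).

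Ndufaf3, a partner of Ndufaf4, fell and then rose in the miR-200c controls. Its median was 1.74 CPM in 2-cell embryos, 0 CPM in 4-cell embryos (highest 4.17) and 14 CPM in morulae (1.28 to 28.1) of the miR-200c controls. The rise to the morula was 5.35 ± 0.77 in this series, 4.79 ± 0.75 in the miR-465c controls and 4.72 ± 0.78 in fertilized embryos. Most 4-cell embryos had no count of the gene, so the size of this rise depends on the fit. Ndufaf2, an assembly factor related to Ndufa12, fell by 2.38 from the 2-cell to the 4-cell stage in the miR-200c controls and had a change of -0.13 in the miR-465c controls (adjusted p = 0.717). From the 4-cell stage to the morula Ndufaf7 fell in all 3 control series (-0.65, -0.74 and -0.75). Ndufaf1 fell in the miR-200c and fertilized controls (-1.31 and -1.40), and Ndufaf5 in the miR-465c and fertilized controls (-0.99 and -1.71).

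Complex II, succinate dehydrogenase, also works in the tricarboxylic acid cycle. In the miR-200c controls 2 of its 4 subunits rose from the 2-cell to the 4-cell stage. These were Sdhb, the iron-sulfur subunit (log2 change 1.89), and Sdhd, a membrane anchor (0.88). Sdha, the flavoprotein that oxidises succinate, ran from 2.09 to 309 CPM in 2-cell embryos (median 136) and from 37.8 to 167 CPM in 4-cell embryos (median 125), with a change of -0.35 (adjusted p = 0.212). The 4-cell range lay inside that of the 2-cell stage. Sdhc, the other anchor, had a change of 0.22 (adjusted p = 0.339). In the miR-465c controls all 4 rose, Sdha by 0.93 and Sdhc by 1.23. Over the next step all 4 rose in the miR-200c and fertilized controls, Sdha by 1.51 and 1.58, and 3 of 4 in the miR-465c controls, where Sdhc at 0.47 did not pass (adjusted p = 0.0576).

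The 8 subunits of complex III all rose at both steps in each control series tested. Uqcrc1, a large core protein of the complex, ran from 3.26 to 125 CPM in 2-cell embryos (median 24.97), from 173 to 590 CPM in 4-cell embryos (median 279) and from 473 to 1157 CPM in morulae (median 710) of the miR-200c controls. No 2-cell embryo reached the 4-cell range, while the 4-cell and morula ranges overlapped. The log2 changes were 3.22 ± 0.28 (adjusted p = 3.46e-22) and then 1.478 in this series, 2.89 and 1.18 in the miR-465c controls, and 1.38 for the later step in fertilized embryos. Uqcrb, a small subunit near the quinone site, had medians of 2.39, 70.5 and 181 CPM at the 3 stages of the miR-200c controls and rose by 4.30 ± 0.33 (adjusted p = 1.05e-26) and 1.75. Over all controls Uqcrc1 had the highest mean of complex III, 470 CPM, and Uqcrb the lowest, 78.3 CPM.

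Complex IV, cytochrome c oxidase, was mixed. From the 2-cell to the 4-cell stage 10 of 15 tested members rose and 2 fell in the miR-200c controls, and 12 rose and 1 fell in the miR-465c controls. To the morula 13, 10 and 12 rose and 2, 2 and 2 fell in the miR-200c, miR-465c and fertilized controls. Cox4i1, the common isoform of the largest nuclear subunit, ran from 5.38 to 414 CPM in 2-cell embryos (median 54.4), from 195 to 481 CPM in 4-cell embryos (median 265) and from 286 to 949 CPM in morulae (median 510) of the miR-200c controls. Each stage was higher than the one before, with overlap between neighbours. Its log2 changes were 1.95 and 1.24 in this series, and 2.63 and 0.70 in the miR-465c controls. Cox7c, a small membrane subunit, rose by 3.04 and 3.60 from the 2-cell to the 4-cell stage.

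Cox6b2 fell at both steps in both parthenote series. It is known as the testis isoform of a subunit that faces the cytochrome c side. It ran from 74.8 to 300 CPM in 2-cell embryos (median 168), from 1.10 to 55.7 CPM in 4-cell embryos (median 12.7) and from 0 to 4.58 CPM in morulae (median 1.46) of the miR-200c controls. The 2-cell and 4-cell ranges did not overlap. In the miR-465c controls the medians were 68.2, 16.5 and 1.89 CPM, and the 2-cell and 4-cell ranges overlapped. The log2 changes were -3.33 ± 0.32 (adjusted p = 6.15e-19) and -2.87 ± 0.36 (adjusted p = 1.92e-12) in the miR-200c controls, and -1.98 ± 0.32 and -2.62 ± 0.34 in the miR-465c controls.

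Cox6b1, the common form, had medians of 70.3, 158 and 318 CPM in the same miR-200c groups and rose by 1.19 and 1.34. Per length of transcript, Cox6b2 made up 66.3% ± 10.4 (SD, n = 28) of the pair in 2-cell embryos of the miR-200c series and 55.0% ± 20.02 (n = 22) in those of the miR-465c series. At the 4-cell stage this share was 8.17%, 6.09% and 6.34% in the miR-200c, miR-465c and fertilized controls, and in morulae 0.491%, 0.528% and 0.891%. The pair therefore changed which member held more of the counts between the first 2 stages in both parthenote series.

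Most other paralogue sets kept 1 leading member, compared per length of transcript. Cox4i1 held 95.7% to 99.9% of the Cox4i pair in every control group. Cox4i2, the isoform known from lung and low oxygen, had group medians of 0.962 and 2.63 CPM at the 2-cell, 4.53 and 6.85 CPM at the 4-cell and 0.249 and 0.261 CPM at the morula stage of the miR-200c and miR-465c series. It fell from the 4-cell stage to the morula by 3.22, 3.55 and 3.17 on the log2 scale in the miR-200c, miR-465c and fertilized controls. Its mean was under 10 CPM in every control group.

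Cox6a1 held at least 97.6% of its pair, and Cox6a2, the heart and muscle form, was at 2.41% and 1.10% at the 2-cell stage and at 0 in every control morula of both parthenote series. Cox7a2 held 58.4% to 80.2% of its family, with Cox7a2l, which takes part in joining respiratory complexes, at 21.7% and 17.2% in 2-cell and 32.6%, 33.95% and 32.6% in morula controls. Cox7b2, known from testis, was at 10.8% ± 10.7 (n = 21) of its pair in fertilized 4-cell controls and at 1.82% ± 6.34 (n = 24) in parthenotes of the miR-200c series. The SD of these shares is as large as the share. Cox8b, the lowest member of complex IV, had no count in 180 of the 183 controls, and Ndufa4l2 stood at or near 0.

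Cox8a, the common form of the smallest subunit, took opposite directions at the first step. It ran from 295 to 667 CPM in 2-cell embryos (median 478) and from 74.8 to 376 CPM in 4-cell embryos (median 225) of the miR-200c controls, but had medians of 213 and 264 CPM at these stages in the miR-465c controls. The log2 change was -1.04 ± 0.14 in the first (adjusted p = 8.68e-11) and 0.37 ± 0.15 in the second (adjusted p = 0.0257). The medians of the series lay further apart at the 2-cell than at the 4-cell stage.

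Complex V was the largest contributor, with 0.175%, 0.368% and 0.745% of all counts at the 3 stages of the miR-200c controls. From the 2-cell to the 4-cell stage 16 of 17 members rose in both series, and to the morula 15, 13 and 15 in the miR-200c, miR-465c and fertilized controls. Atp5b, the catalytic beta subunit, had the highest mean of all 92 genes, 1411 CPM over the controls. It ran from 411 to 1157 CPM in 2-cell embryos (median 752), from 842 to 1528 CPM in 4-cell embryos (median 1156) and from 1239 to 3426 CPM in morulae (median 2537) of the miR-200c controls. Neighbouring stages overlapped, and the log2 changes were 0.62 and 1.39.

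Atp5d, a subunit of the central stalk, had the largest first rise of complex V in both series. In the miR-200c controls it ran from 0 to 31.4 CPM in 2-cell embryos (median 3.15), from 29.9 to 363 CPM in 4-cell embryos (median 140) and from 272 to 728 CPM in morulae (median 493). The 2-cell and 4-cell ranges met only at their edges. The first change was 4.59 ± 0.34 (adjusted p = 6.73e-28), and 4.26 ± 0.36 in the miR-465c controls.

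Atp5g1, Atp5g2 and Atp5g3 encode the same mature subunit of the rotor ring with different targeting peptides. Per length of transcript Atp5g1 held 88.8% and 95.5% of the 3 in 2-cell controls of the miR-200c and miR-465c series and 73.2% and 73.2% in their morulae (74.0% in fertilized morulae). Over the same span Atp5g3 went from 5.57% and 3.34% to 16.9% and 16.6%. From the 4-cell stage to the morula Atp5g3 rose by 2.64 ± 0.24, 2.41 ± 0.24 and 1.74 ± 0.24 in the miR-200c, miR-465c and fertilized controls. Atp5g1 rose by 1.01 and 0.69 in the miR-200c and fertilized controls, and its change of 0.26 in the miR-465c controls did not pass (adjusted p = 0.167). Atp5s had the lowest mean of complex V, 6.55 CPM. Atp5sl fell from the 4-cell stage to the morula in the miR-465c controls (-0.79).

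Per kilobase of transcript the genes with the highest means over the controls were Atp5g1 (790 CPM per kb), Atp5b (751), Cox8a (580) and Cox4i1 (485). These 4 come from complexes IV and V. Many of these genes have processed pseudogenes, and the authors' estimated counts divide reads that match more than 1 locus, so levels of short subunits carry that uncertainty.

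Other genes of mitochondrial metabolism were read from lists made by function. Mitochondrial ribosomal proteins rose in 66 and 72 of 77 cases from the 2-cell to the 4-cell stage in the miR-200c and miR-465c controls (2 and 1 fell), with median log2 changes of 1.478 and 1.81. Cytosolic ribosomal proteins rose in 75 of 75 cases in both series, with medians of 2.38 and 2.62. Of 36 tested assembly factors of complexes I to V with other symbols, 23 and 23 rose and 2 and 3 fell, among them the copper chaperone Cox17 (3.48 and 3.45) and Cox19 (4.56 and 3.79). Thus these lists had medians above that of all genes over the first step, as the 87 members did.

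The tricarboxylic acid cycle list behaved differently between the steps. From the 2-cell to the 4-cell stage 10 and 9 of its 18 genes rose and 5 and 1 fell, with Suclg1 of succinyl-CoA synthetase up by 3.84 and 3.91. To the morula 17, 15 and 15 rose in the miR-200c, miR-465c and fertilized controls, with Idh3a of isocitrate dehydrogenase up by 2.93, 3.22 and 2.89. Of 22 electron carriers and exchange proteins 14 and 16 rose over the first step (4 and 2 fell) and 16, 15 and 13 over the second (1, 2 and 2 fell). The adenine nucleotide carrier Slc25a5 rose by 2.31 and 1.91 over the second step of the miR-200c and miR-465c controls.

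Genes that regulate mitochondrial biogenesis or express mitochondrial DNA were mixed. Of 19 tested, 11 and 7 rose and 2 and 3 fell over the first step in the miR-200c and miR-465c controls, where 32.7% and 29% of all genes rose. Over the second step 4, 3 and 4 rose and 7, 7 and 7 fell in the miR-200c, miR-465c and fertilized controls. No difference between this list and the subunits was tested. Ppargc1b, a coactivator, had a mean of 3.39 CPM in 2-cell, 0.536 CPM in 4-cell and 12.6 CPM in morula controls of the miR-200c series. Nrf1, a transcription factor known for binding promoters of respiratory genes, changed by -1.68 from the 4-cell stage to the morula in fertilized controls, with means of 421 and 121 CPM.

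A promoter of 300 bases, from RefSeq on GRCm38.p6, was found for 76 of the 92 genes. The NRF1 word GCATGCGC was searched on both strands, and a promoter counted once however many matches it held. It was found in 12 of the 76 (15.8%), against 3.68% of all 17708 promoters. CCGGAAGT, a word of the ETS family that includes GABP, was found in 5 (6.58%, against 5.38%), and AAGATGGCG, a word of YY1, in 7 (9.21%, against 1.99%). The 12 genes with the NRF1 word had 10 rises and 1 fall at the first step of the miR-200c controls (median 1.75), and the 62 tested genes with a promoter without it 50 rises and 5 falls (median 1.41). Windows of at most 30 bases are shown for 4 members with the word upstream of the start site, 3 that rose and Ndufaf4, which fell. They were chosen after their values were seen, and matches to the word are in capitals. In Atp5k and Ndufaf4 matches on both strands overlap, so the capitals run longer than the word. The windows lie at chr2:36049329-36049356 (minus strand), chr4:140961207-140961234 (plus), chr5:108434430-108434459 (minus) and chr4:24897960-24897989 (plus).
Ndufa8: cgctggagacGCATGCGCagatggtacc
Sdhb: agcccagtggGCATGCGCcctacgggcc
Atp5k: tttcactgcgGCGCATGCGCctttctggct
Ndufaf4: ccagatgtctGCGCATGCGCctgtgcggaa
Genes that hold the word thus moved in both directions: Ndufa8 by 3.70, Sdhb by 1.89 and Atp5k by 2.34, and Ndufaf4 by -2.00 in the miR-200c controls.

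The 2 parthenote control series were compared stage by stage, since both were GFP-injected embryos of the same strain. At the 2-cell stage 18 of 87 members were higher in the miR-465c controls and 20 lower (15.1% and 11.6% of all genes), with a median difference of 0.05 against 0.03 for all genes. With only the compared groups in the fit 5 of 75 were higher and 13 lower (8.43% and 9.17% of all genes). By complex the counts differed. Of complex IV 2 were higher and 9 lower at an unadjusted p under 0.05, beside 2644 and 2133 of all 13027 genes. By the adjusted edgeR test 5 core subunits of complex I were higher and 0 lower. Of complex III 4 were higher and 1 lower, and of complex IV 0 were higher and 8 lower. With only the compared groups these counts were 1 and 0 for the core subunits, 2 and 0 for complex III and 0 and 6 for complex IV. Without the embryos that stood apart they were 5 and 0, 4 and 1, and 2 and 8, in the same order. Over all members 21 were then higher and 20 lower, given without the share of all genes. Cox6c, a small subunit of complex IV, ran from 17.4 to 148 CPM (median 68.7) in the miR-200c controls and from 0 to 48.1 CPM (median 13.3) in the miR-465c controls. The ranges overlapped, and the log2 difference was -2.22 ± 0.18 (adjusted p = 1.60e-21). Ndufv1 (1.45) and Uqcrc1 (1.42) were highest in the other direction, and with only the compared groups Ndufv1 did not pass (adjusted p = 0.13).

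At the 4-cell stage 41 members were higher and 5 lower in the miR-465c controls (12.3% and 15% of all genes), and the median difference was 0.57 against 0.01 for all genes. Other lists moved too. Of 75 cytosolic ribosomal proteins 44 were higher and 2 lower (median 0.44), and of 77 mitochondrial ones 33 were higher and 1 lower (median 0.50). Late 2-cell markers had 0 of 9 higher and 6 lower (median -1.88). Their part in the difference was not tested. Ndufa3 was higher by 1.56, Ndufb10 by 1.42, Uqcr11 by 1.40, Ndufa11 by 1.31 and Ndufs8 by 1.27. Uqcrb (-0.95), Ndufaf4 (-0.84), Ndufv2 (-0.61), Cox7b (-0.58) and Atp5f1 (-0.54) were lower. In morulae none passed the edgeR test in either direction (0.806% and 2.64% of all genes). At an unadjusted p under 0.05, 16 members were higher and 1 lower (4.97% and 8.08%). DESeq2 called 7 higher, beside 233 of all 13027 genes. The median difference there was 0.25, against 0.03 for all genes. Experiment, day and library batch cannot be told apart between these series.

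The difference between the stage changes of the series was tested directly. For the 2-cell to 4-cell step it passed for 29 members (14.6% of all genes), 28 with a more positive change in the miR-465c controls. These included Cox6c (2.06 ± 0.24, adjusted p = 4.54e-11), Cox8a (1.41 ± 0.21, adjusted p = 1.04e-07) and Ndufaf2 (2.26 ± 0.41, adjusted p = 1.22e-05). For the 4-cell to morula step it passed for 3 (3.68% of all genes), all with a smaller rise in the miR-465c controls: Cox6a1 (-0.76), Atp5k (-1.02) and Atp5g1 (-0.75). Without the embryos that stood apart the count for this step was 11. The share of all genes in that fit is not given, so this count is not read as a result about the members. Between fertilized and parthenote controls of the miR-200c experiments this later step differed for no member by edgeR (3.02% of all genes) or by DESeq2. At an unadjusted p under 0.05 by edgeR 9 members had a less positive change in fertilized embryos and 0 a more positive one. Over all 13027 genes these counts were 573 and 1298. The difference was negative for 71 of 87 members, with a median of -0.24 against 0.15 for all genes. The smallest p-values were those of Atp5g3 (-0.90), Uqcr10 (-0.72) and Cox5b (-0.56), with adjusted p of 0.13, 0.173 and 0.195.

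Fertilized embryos were compared with the parthenotes of the miR-200c experiments. These control groups also differed in markers and other lists. At the 4-cell stage 63 of 75 cytosolic ribosomal proteins were higher in fertilized controls and 0 lower. Of the morula markers 3 of 7 were lower and 0 higher, and of the maternal oocyte markers 2 of 8 were lower and 0 higher. Their part in the results was not tested. At the 4-cell stage 5 members were higher in fertilized controls and 2 lower (3.89% and 12.3% of all genes). The balance turned with the scaling. With RLE size factors 2 were higher and 4 lower (3.02% and 14.5% of all genes), with library totals 1 and 5 (2.69% and 16.2%), and by DESeq2 3 and 6 (3.1% and 14.7%). Ndufaf4 was lower, running from 1.95 to 34.03 CPM (median 9.23) in fertilized embryos and from 9.94 to 77.4 CPM (median 32.7) in parthenotes. The ranges overlapped, and the log2 difference was -1.59 ± 0.23 (adjusted p = 6.53e-08). Ndufv2, an iron-sulfur subunit of the core, was also lower (-0.77 ± 0.18, adjusted p = 0.000888). Uqcr10 (0.75), Ndufb10 (0.86), Ndufa2 (0.49), Ndufa6 (0.70) and Cox8a (0.41) were higher. Against the parthenotes of the miR-465c experiments the first 4 of these turned in sign, to -0.31, -0.55, -0.66 and -0.054.

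In morulae 1 member was higher and 16 lower at an unadjusted p under 0.05 (5.06% and 6.59% of all genes). DESeq2 called 0 higher and 3 lower, beside 119 and 143 of all 13027 genes. The edgeR test called 0 higher and 2 lower (0.852% and 0.998% of all genes). The 2 were Cox7b (-0.91 ± 0.21, adjusted p = 0.00462) and again Ndufaf4 (-0.96 ± 0.23, adjusted p = 0.00756), with means of 21.8 CPM in fertilized and 42.4 CPM in parthenote embryos. Against the parthenotes of the miR-465c experiments, a comparison added after the data were seen, 0 were higher and 28 lower at the 4-cell stage (8.87% and 14.2% of all genes) and 0 and 18 in morulae (4.85% and 3.06%). Without the embryos that stood apart 8 were higher in the first comparison at the 4-cell stage. That count is given without the share of all genes and is not read as a result about the members. In morulae 5 of 7 morula markers were lower in fertilized than in miR-200c parthenote controls, and 0 higher, at an unadjusted p under 0.05 by edgeR. Their summed level had medians of 1541 CPM in fertilized and 3333 CPM in these parthenote controls. The part of this difference in the results was not tested. Embryo type and experiment cannot be told apart.

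Each dose of microRNA was compared with its own GFP-injected controls in 15 comparisons, and no member passed the edgeR test in any of them. The share of all genes called was 0.0% in 13 comparisons and 0.0188% for the mid and high dose of miR-200c-3p at the 4-cell stage. The 2 genes called at that high dose were markers of the late 2-cell embryo, and DESeq2 called 0 of these markers. The summed level of such markers had a median of 45.28 CPM in that group, against 76.75 CPM in its controls. Its highest value was 11120 CPM, and the part of single embryos in these 2 calls was not tested. In simulated counts for the 4-cell mid dose 55% of changes of 1 on the log2 scale and 83% of changes of 2 were recovered. Doses of an experiment share their controls, so they are set side by side. The mean share of counts in the 92 genes differed from the controls by less than the controls' SD in each injected group of the miR-200c parthenotes. It was 0.481% and 0.413% for the low and mid dose of miR-200c-3p at the 2-cell stage beside 0.461% ± 0.0823 in controls. It was 0.828%, 0.871% and 0.87% for the low, mid and high dose at the 4-cell stage beside 0.859% ± 0.13, and 1.84%, 1.72% and 1.80% in morulae beside 1.77% ± 0.302. This SD is the spread between single embryos and not the error of a mean, and the differences of these shares were not tested.

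At the 2-cell stage the mid dose of miR-200c-3p had 55 of 77 tested members below their controls, with a median log2 difference of -0.21 against 0.04 for all genes. At an unadjusted p under 0.05 there were 11 lower and 1 higher, beside 9.09% and 7.5% of all 11202 genes. Other lists moved too. Cytosolic ribosomal proteins were below their controls in 75 of 75 cases (median -0.68, 64 at an unadjusted p under 0.05), and 7 of 8 markers of the maternal oocyte were above (3 at an unadjusted p under 0.05), with a median summed level of 4632 CPM against 3553 CPM in controls. Their part in the result was not tested. Cox6a1, the common form of a complex IV subunit, ran from 5.33 to 127 CPM (median 61.8) after the mid dose and from 41.7 to 183 CPM (median 88.3) in controls. The ranges overlapped widely, and the difference was -0.59 with an adjusted p of 0.166. The next were Ndufa2 (-0.63, adjusted p = 0.195) and Cox4i1 (-0.71). DESeq2 called Cox6a1 (adjusted p = 0.0348) and Ndufa2 (0.0462) among 290 genes called in all (2.59%). Without the embryos that stood apart 6 were lower and 0 higher at an unadjusted p under 0.05, beside 7.75% and 6.73% of all genes.

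The low dose at this stage had 26 of 77 below their controls, a median of 0.08, and 1 member at an unadjusted p under 0.05, Cox6b2 (0.29). For miR-465c-3p the only 2-cell dose had a median of 0.08 over 76 tested members and 1 at an unadjusted p under 0.05, Cox8a (0.43). Over all genes 1.21% and 0.981% were under that p in these 2 comparisons.

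At the 4-cell stage the medians over 86 members were 0.00, 0.04 and 0.06 for the low, mid and high dose of miR-200c-3p and 0.04 and -0.04 for the low and high dose of miR-465c-3p. Counts at an unadjusted p under 0.05 were 0, 3, 7, 4 and 2, beside 3.59%, 6.01%, 4.41%, 3.08% and 3.12% of all genes. Those with the smallest p were Cox8a (-0.27) after the low, Atp5g2 (0.39) after the mid and Atp5f1 (0.24) after the high dose of miR-200c-3p, and Uqcrc1 (0.50) and Ndufa2 (0.63) after the low and high dose of miR-465c-3p. Without control 23 and low dose 17, which stood apart, the median for the low dose of miR-465c-3p was -0.04. Without the 4-cell library that went against its label the medians for the low, mid and high dose of miR-200c-3p were -0.01, 0.08 and 0.06. At an unadjusted p under 0.05 there were then 0 higher and 1 lower, 7 and 1, and 9 and 1. The shares of all genes in that fit are not given, so these counts are not read as a result about the members. In fertilized embryos the median was 0.01 at the 4-cell stage and -0.02 in morulae over 85 members, with 1 gene at an unadjusted p under 0.05 in each (2.71% and 3.76% of all genes), Ndufa10 (0.45) and Ndufa8 (0.32).

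In parthenote morulae 1 or 2 embryos set the sign of the median for some doses. These were the low dose of miR-200c-3p and the high dose of miR-465c-3p, while the other doses kept their sign. After the low dose of miR-200c-3p 80 of 85 members were above their controls, with a median of 0.15, and 4 were higher at an unadjusted p under 0.05 (3.33% of all genes), the first being Ndufv2 (0.37). The library labelled low dose 25 held 3.63% of its counts in the 92 genes against a group median of 1.77%. Without it 21 of 85 were above and the median was -0.05. After the low dose of miR-465c-3p 71 of 86 members were below their controls with a median of -0.12, and 15 were lower at an unadjusted p under 0.05, beside 3.01% of all genes. Without control 24, which held 3.22%, and high dose 26, 50 of 86 were below, the median was -0.03 and 7 were lower (1.71% of all genes). The high dose of miR-465c-3p moved from -0.04 to 0.05 when the same 2 embryos were left out. The mid and high doses of miR-200c-3p had medians of -0.11 and -0.09, with 65 and 59 of 85 members below their controls, and without embryo 25 of the low dose -0.10 and -0.09. At an unadjusted p under 0.05 there were 2 after the mid dose, led by Ndufb11 (-0.38), 4 after the high dose, led by Atp5a1 (0.27), and 5 after the high dose of miR-465c-3p, led by Ndufaf7 (0.36, adjusted p = 0.324). Over all genes 4.92%, 6.73% and 10.7% were under that p in these 3 comparisons. Without the embryos that stood apart there were 0 higher and 6 lower, 6 and 3, and 5 and 4 at that p. The shares of all genes in those fits are not given, so these counts are not read as a result about the members.

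The editing assay, Ago-REMORA, used 2-cell parthenotes that carried a fusion of AGO2 and an enzyme that edits RNA. AGO2 is the effector protein of microRNAs, and edits are read as a trace of its contact with a transcript. Values are in the authors' unit, EPKM, which the file headers do not spell out, and their depth is unknown. Of the 92 genes 26 were listed in the 3′ UTR and in the coding tables, and 7 and 15 of them were above 0 in at least 25% of embryos. In the limma test none was called in any of 6 comparisons. For AGO2 fusion against editor alone 13.1% of 3′ UTRs and 6.22% of coding sequences were called over all genes, for AGO2 with miR-200c-3p against AGO2 alone 0.0% and 0.0%, and with miR-465c-3p 0.0406% and 0.0%. At an unadjusted p under 0.05 there were 2, 0 and 1 members for 3′ UTRs and 1, 0 and 0 for coding sequences.

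The 3′ UTR of Cox5b, a zinc-binding subunit of complex IV, was above 0 in 2 of 15 embryos with the editor alone and in 13 of 23 with the AGO2 fusion, with a difference of 4.03 ± 1.54 on the log2(EPKM + 0.00367) scale (adjusted p = 0.0686). That of Ndufaf4 was above 0 in 4 of 15 and 16 of 23 (3.08, adjusted p = 0.0827). With miR-200c-3p added Ndufaf4 was above 0 in 21 of 27 embryos and its difference from the fusion alone was 0.68 (adjusted p = 0.954). That of Cox7b was above 0 in 9 of 23 embryos with the fusion and in 4 of 28 with miR-465c-3p added (-2.44, adjusted p = 0.804). For a recovery test, values were shuffled across embryos within each gene. A change of 2 on the log2 scale was then given to values above 0 in embryos with the AGO2 fusion alone, while values of 0 stayed at 0. The 3′ UTR test recovered 2% of such changes and the coding test 10.5%, so they would mostly be missed here. Changes in how many embryos lie above 0 were not simulated.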

How the data were processed

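The authors mapped reads to mm10 with RSEM, per the labels' protocols, and deposited expected counts per gene without normalization. Tools listed without a role in the submitters' processing notes were STAR, featureCounts, FastQC, cutadapt, DESeq2 1.48.2 and R 4.5.1. Editing values are a score on the authors' own scale, called EPKM per the file headers. Of every editing file, 3 columns fit no labelled sample and were left out. Intron editing and sperm tables were not used here.

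Groups came from sample titles. Expected counts were rounded and tested with edgeR 4.0.16 (R 4.3.3): TMM, filterByExpr by group (minimum count 10, minimum total 15), quasi-likelihood fit, Benjamini-Hochberg adjustment over all genes tested, threshold 0.05. Each dose was fitted with all groups of its stage and experiment, and the controls in 1 fit over 8 groups. DESeq2 1.42.0, RLE size factors, library totals, no filter, leaving out embryos under 1000000 counts and other alternatives were tried. Editing was tested with limma 3.58.1 on log2(EPKM + pseudocount), with pseudocounts of 0.00367 (3′ UTR) and 0.00699 (coding), set from the smallest value above 0. The tests were tried on simulated data: at the 2-cell to 4-cell step 30% of changes of 1 and 79% of changes of 2 on the log2 scale were recovered.

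CPM divides by the library total, and per-kilobase levels use mean transcript lengths. Totals per embryo (median 3118638) keep counting error small above about 10 CPM. Without molecular identifiers, amplification noise adds to it. Named genes were, in each comparison, members past the threshold with the largest change and a mean of at least 10 CPM in the higher group, or, where fewer than 6 passed, those and the 3 with the smallest p. The highest and lowest member of each complex, paralogue sets, 3 core subunits and complex II were always named, except 1 core subunit that is not reported here. Members and lists were chosen with earlier results of these data known.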

Additional observations from a re-analysis of the deposited data

Results flagged for a closer look

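These results were picked out because the change over a stage step differed between the 2 parthenote control series by the test of that difference (edgeR's quasi-likelihood test, adjusted p under 0.05 over 13027 genes). No explanation was weighed. Experiment, day and library batch cannot be told apart between the series.

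For the 2-cell to 4-cell step 28 members had a more positive change in the miR-465c series and 1 a less positive one. In log2 units the difference, miR-465c minus miR-200c, was 2.26 for the assembly factor Ndufaf2, 2.09 for Ndufa3, 2.06 for Cox6c, 2.06 for Atp5g2, 1.80 for Ndufs6, 1.67 for Atp5e, 1.41 for Cox8a, 1.40 for Ndufab1, 1.40 for Ndufb5 and 1.35 for Cox6b2. For Ndufv2 it was -0.91. In 2-cell controls of the miR-465c series Ndufa3, Ndufs6 and Atp5g2 had means of only 1.43, 3.29 and 4.69 CPM. Cox6c and Cox8a belong to complex IV, which had 8 of 15 tested members lower in the 2-cell controls of the miR-465c series and none higher by edgeR. Without the embryos that stood apart 2 of these 15 were higher and 8 lower by edgeR. At an unadjusted p under 0.05, with all embryos, there were 2 higher and 9 lower. Over all 13027 genes 1510 were lower and 1967 higher by edgeR, and 2644 higher and 2133 lower at that unadjusted p. For the 4-cell to morula step 3 members had a smaller rise in the miR-465c series, namely Atp5k (-1.02), Cox6a1 (-0.76) and Atp5g1 (-0.75).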

How the results depend on the processing

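The counts of members that rose or fell over each stage step stayed within 1.5 times their value under every alternative run. Other scalings shifted all genes: at the 2-cell to 4-cell step of the miR-200c controls the median of all genes moved from -0.15 to -0.48 with RLE factors and that of the members from 1.57 to 1.27. There Cox5a and Ndufb6, called at 0.34 and 0.34, turned to -0.032 and -0.050 with RLE factors and -0.028 and -0.039 with DESeq2.

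The other comparisons of controls were less stable. For fertilized against parthenote 4-cell embryos (5 higher, 2 lower) the counts were 2 and 4 with RLE factors, 1 and 5 with library totals, and 3 and 6 with DESeq2. Against the miR-465c controls they were 0 and 28, with Ndufa2 at -0.66, Ndufa6 at -0.054, Ndufb10 at -0.55 and Uqcr10 at -0.31, all turned in sign. With only the compared groups in the fit 10 were higher (9.16% of all genes), and without the embryos that stood apart 8. In morulae (0 and 2) only the compared groups gave 1 and 16, and the miR-465c controls 18 lower. Between the series at the 2-cell stage (18 and 20) only the compared groups gave 5 and 13, and no embryos that stood apart 21 and 20. In morulae (0 and 0) RLE factors gave 2 higher, DESeq2 7, and only the compared groups 11 and 2. For the difference of the 2-cell to 4-cell change (28 and 1) library totals gave 3 lower, DESeq2 2 lower and only the compared groups 17 higher. For the 4-cell to morula change (0 and 3) library totals gave 1 higher, DESeq2 5 lower, no embryos under 1000000 counts 6, only the compared groups 1 and 5, and no embryos that stood apart 11. Fertilized minus parthenote had 5 lower with only the compared groups (0 as reported). Where no share of all genes stands beside a count in this paragraph, the count is not read as a result about the members. The cause was not tested.

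No dose comparison had a member called. Without a filter 1 was called at the 2-cell low dose of miR-200c-3p, 2 at the mid dose and 1 at the 4-cell low dose of miR-465c-3p, beside 6.13%, 7.17% and 9.05% of all genes. Apart from Cox6a1 at the mid dose these were genes near 0: Ndufa4l2, above 0 in 1 of 26 and 4 of 23 injected embryos and 0 of 28 controls, and Cox7b2, above 0 in 0 of 24 injected embryos and 2 of 23 controls. DESeq2 called 2 at the 2-cell mid dose (2.59% of all genes).

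No label says that replicate numbers pair embryos, and not every same-numbered pair had a correlation over 0.1, so no pairing was assumed. Mean correlations of same-numbered embryos were 0.0138 to 0.1 by stage and experiment, beside -0.0016 to 0.0022 for other numbers. Whether same-numbered embryos shared a batch was not tested. The highest mean for same-numbered embryos was in fertilized morulae, 0.1 against -0.0016 for other numbers, with 11 of 22 pairs over 0.1. In 2-cell parthenotes of the miR-200c series it was 0.0496 against -0.0014, with 19 of 65 over 0.1. With a replicate block 1 member, Cox6a1, was called at the 2-cell mid dose (-0.74, adjusted p = 0.0361, with 519 genes called in all), 10 were higher between the series at the 2-cell stage, and 1 was lower for the 4-cell to morula difference.

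Counts per embryo limit what can be said of genes under about 1 CPM, and shares do not give RNA per embryo. The alternatives without the embryos that stood apart and with the miR-465c controls were added after the data were seen.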
